A study of Mus musculus with 6 samples.

Results

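The genes described here are the oxygen-sensing pathway of hypoxia-inducible factor (HIF) in splenic T cells, 10 genes of the 49671 in the deposited tables. They are the 3 HIF prolyl hydroxylases Egln1, Egln2 and Egln3, the asparaginyl hydroxylase Hif1an, the ubiquitin ligase subunit Vhl, the HIF subunits Hif1a, Epas1 and Arnt, and the target genes Bnip3 and Vegfa. They were taken by gene name, and each name matched 1 row of each table. Egln3 was chosen by its RPKM values in these same libraries, which were far higher after stimulation, so its expression is given as a description without a test. The other 9 were taken as its partners in the pathway. Total RNA depleted of ribosomal RNA was sequenced from splenic CD3+ T cells of F1 mus x cast females. C57BL/6 mothers (mus), which carried a heterozygous Xist deletion, had been crossed to fathers of the castaneus subspecies (cast). There were 3 stimulated libraries (day 2, cultured for 48 h with 1 µg/ml plate-bound anti-CD3 and 10 µg/ml soluble anti-CD28) and 3 unstimulated libraries (day 0, lysed straight after isolation on enrichment columns). Culture and stimulation therefore differ together between the groups and cannot be told apart, and the labels name no oxygen level. All 6 libraries come from this cross, a model of skewed X inactivation, and all 10 genes lie on autosomes.

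In oxygenated cells the prolyl hydroxylases, which need oxygen, iron and 2-oxoglutarate, hydroxylate the alpha subunits of HIF. The VHL ubiquitin ligase binds the hydroxylated subunits and marks them for degradation, and FIH, the product of Hif1an, separately blocks their binding to coactivators. When hydroxylation is low, HIF-1α or HIF-2α (the product of Epas1) pairs with ARNT and activates genes of glycolysis, mitophagy, blood vessel growth and, as feedback, the hydroxylase genes Egln1 and Egln3. In T cells HIF-1α is also known to build up after antigen receptor stimulation at normal oxygen. Most of this control acts on the HIF proteins, which RNA data do not measure.

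The leading hydroxylase transcript differed between the groups (the stacked plot of hydroxylase transcripts shows each library). Egln3 (chromosome 12, 54178981 to 54203860 on mm10, minus strand, protein coding), whose product is known as PHD3, was at 65.8, 74.9 and 75.4 RPKM in stimulated replicates 1, 2 and 3, against 0.918, 0.929 and 1.27 RPKM in unstimulated replicates 1, 2 and 3. RPKM are reads scaled to gene length and library depth, so levels can be compared between genes. The groups do not overlap, and the lowest stimulated library lies far above the highest unstimulated one. The mean was 72.0 ± 5.43 RPKM in stimulated cells and 1.04 ± 0.203 RPKM in unstimulated cells (SD, n = 3 each), 69.2-fold higher, with a difference of 5.16 in mean log2(RPKM + 1). That scale understates the change of genes with low levels, and with a pseudocount of 0.1 in place of 1 the difference was 5.99.

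Egln1 (chromosome 8, 124908587 to 124949324, minus strand), which encodes PHD2, the main oxygen sensor of most cells, was at 32.3, 34.3 and 33.6 RPKM in stimulated replicates 1 to 3 and at 16.1, 15.2 and 12.9 RPKM in unstimulated replicates 1 to 3. It rose 2.27-fold, by 1.14 ± 0.09 (log2 difference ± SE, limma adjusted p = 3.07e-05). Egln2 (chromosome 7, 27158658 to 27166802, minus strand), which encodes PHD1, went the other way, at 12.4, 13.3 and 12.8 RPKM in stimulated cells and 26.2, 20.8 and 22.6 RPKM in unstimulated cells. It fell to 0.553 of the unstimulated mean (log2 difference -0.80 ± 0.09, limma adjusted p = 0.000176). Neither pair of groups overlaps. Both calls held in every alternative tried, though the log2 difference of Egln2 was only -0.37 on summed allelic counts with edgeR.

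Together the 3 hydroxylase genes summed to 118 ± 7.23 RPKM in stimulated cells and 38.9 ± 3.61 RPKM in unstimulated cells (SD, n = 3 each). Egln3 made up 60.9% ± 1.17 of that sum in stimulated cells and 2.7% ± 0.691 in unstimulated cells. Egln2 made up 10.8% ± 0.351 in stimulated cells and 59.5% ± 2.78 in unstimulated cells, so the most abundant hydroxylase transcript was Egln3 in each stimulated library and Egln2 in each unstimulated one. Egln1 was second in every library, with 27.6% to 29.2% in stimulated cells and 35% to 41.1% in unstimulated cells.

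**Figure D1:**
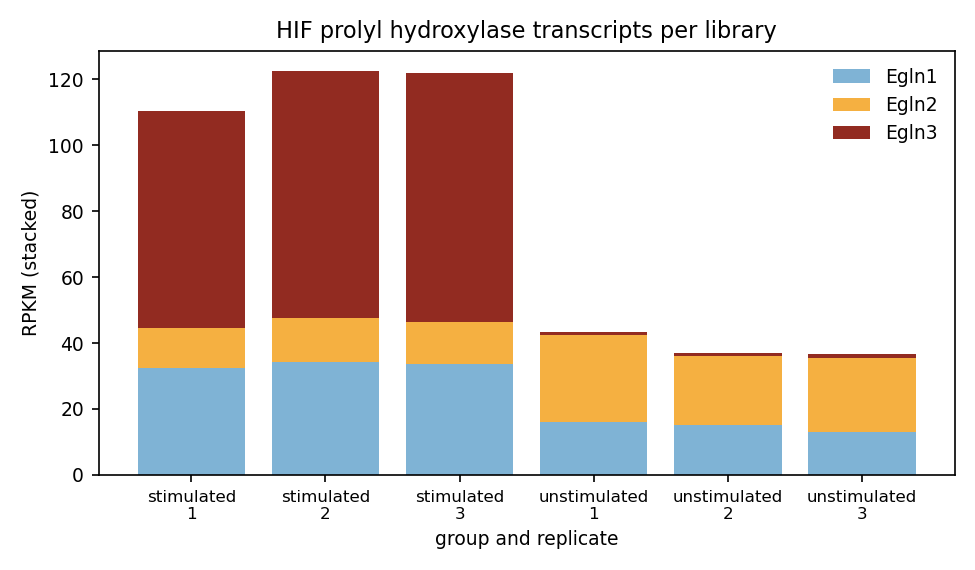
Stacked RPKM (vertical axis, from 0) of Egln1, Egln2 and Egln3 in each library, by group and replicate number. Egln3 fills 59.6% to 61.9% of each stimulated bar and 2.13% to 3.47% of each unstimulated bar.

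HIF dimers bind a short core sequence, ACGTG or GCGTG, in the genes they control. The core was searched on both strands of the 250 bases before each RefSeq transcription start (GRCm38.p6). The windows shown are of Egln3, the hydroxylase gene highest after stimulation, Egln2, its relative that fell, and Bnip3, the target with the larger rise. They read 5′ to 3′ in the direction of the gene, with every match in capitals, including its reverse complements CACGT and CACGC.
Egln3, chr12:54203875-54204124, minus strand: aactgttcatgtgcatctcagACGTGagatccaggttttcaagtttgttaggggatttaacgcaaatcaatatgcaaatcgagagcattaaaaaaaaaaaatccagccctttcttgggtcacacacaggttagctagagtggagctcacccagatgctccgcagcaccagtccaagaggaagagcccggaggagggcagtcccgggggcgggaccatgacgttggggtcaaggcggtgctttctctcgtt
Egln2, chr7:27166803-27167052, minus strand: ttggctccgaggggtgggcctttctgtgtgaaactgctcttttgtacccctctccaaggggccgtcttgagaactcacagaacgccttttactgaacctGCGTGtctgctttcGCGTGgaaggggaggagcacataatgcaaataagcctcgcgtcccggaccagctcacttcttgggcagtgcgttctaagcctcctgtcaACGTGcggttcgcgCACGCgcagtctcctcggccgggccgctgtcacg
Bnip3, chr7:138909507-138909756, minus strand: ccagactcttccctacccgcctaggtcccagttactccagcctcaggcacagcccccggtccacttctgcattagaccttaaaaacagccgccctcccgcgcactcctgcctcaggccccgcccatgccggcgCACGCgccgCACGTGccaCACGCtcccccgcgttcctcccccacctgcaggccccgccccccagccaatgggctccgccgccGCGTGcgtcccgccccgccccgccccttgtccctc
The Egln3 window held 1 match, and the window shown of Egln2, the gene that fell, held 4. A second Egln2 window, chr7:27165729-27165978, held 1. The Bnip3 window held 5, of which 2 overlap on opposite strands of a single CACGTG, the E-box sequence that other factors also bind. GC content was 50.8% in the Egln3 window, 59.2% in the Egln2 window shown and 72.4% in the Bnip3 window. Its part in the number of matches was not tested. RefSeq gave 11 windows for 9 members, of which 8 held at least 1 match, and so did 38.6% of all 32851 windows of this length; at least 3 matches were in 6.58% of all windows. The first Vegfa window, at the start of the annotated gene, and those of Vhl and Hif1an held none. A match is a string of letters and not a binding site.

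Vhl and Hif1an, the other members that restrain HIF, differed little between the groups. Vhl (chromosome 6, 113623959 to 113631633, plus strand), the substrate-binding subunit of the ligase, was at 5.40, 5.92 and 6.08 RPKM in stimulated cells and at 5.16, 6.54 and 5.45 RPKM in unstimulated cells, and the groups overlap. Its log2 difference was 0.02 ± 0.10 (limma adjusted p = 0.838), and it passed as higher after median centring (0.28, limma adjusted p = 0.0421) and on summed allelic counts (0.40, edgeR adjusted p = 0.022). Hif1an (chromosome 19, 44562850 to 44576274, plus strand) was at 8.49, 8.5 and 7.90 RPKM in stimulated cells and at 10.7, 10.9 and 10.6 RPKM in unstimulated cells, which do not overlap. Its log2 difference of -0.34 ± 0.06 passed as lower (limma adjusted p = 0.00156), but the median gene stood at -0.24. With median centring the value was -0.08 and did not pass, and on summed allelic counts it was 0.03 with edgeR, so its direction depends on scaling.

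Among the HIF subunits the balance between alpha subunits shifted through Hif1a. Hif1a (chromosome 12, 73901375 to 73947530, plus strand), which encodes HIF-1α, was at 179, 202 and 205 RPKM in stimulated cells and at 23.0, 23.5 and 24.9 RPKM in unstimulated cells. The groups lie far apart, and Hif1a rose 8.21-fold (log2 difference 2.98 ± 0.07, limma adjusted p = 5.34e-07). On summed allelic counts, which hold only 386 reads of Hif1a, the log2 difference was 2.08 with edgeR and with DESeq2. It was the most abundant of the 10 genes in stimulated cells. An annotated antisense gene that overlaps its exons, Gm15283, was at 0.181 to 0.229 RPKM in stimulated cells and at 0 in unstimulated cells, and the strand setting of the counting is not known.

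Epas1 (chromosome 17, 86753700 to 86833410, plus strand), which encodes HIF-2α, was the least abundant member in stimulated cells, with 2.92, 3.23 and 4.84 RPKM there and 3.63, 4.02 and 2.88 RPKM in unstimulated cells. The groups overlap, and the log2 difference was 0.03 ± 0.18 (limma adjusted p = 0.866). Hif1a made up 98.2% ± 0.404 of the summed RPKM of Hif1a and Epas1 in stimulated cells and 87.1% ± 2.19 in unstimulated cells (SD, n = 3 each). Arnt (chromosome 3, 95434388 to 95497240, plus strand), the common partner subunit, was at 8.80, 9.62 and 10.2 RPKM in stimulated cells and at 11.9, 12 and 13 RPKM in unstimulated cells. Its log2 difference of -0.33 ± 0.07 passed as lower (limma adjusted p = 0.00508), but with median centring it was -0.07 and did not pass, and on summed allelic counts it was 0.11 with edgeR, so for Arnt too the direction depends on scaling. A pseudogene on the same strand within an Arnt intron, Gm42672, was at 2.47 to 4.12 RPKM in stimulated cells and 7.11 to 8.22 RPKM in unstimulated cells.

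Both target genes among the members rose. Bnip3 (chromosome 7, 138890836 to 138909519, minus strand), which encodes a mitochondrial receptor for mitophagy, was at 37.6, 40.7 and 36.5 RPKM in stimulated cells and at 1.86, 2.25 and 1.85 RPKM in unstimulated cells. It rose 19.3-fold (log2 difference 3.72 ± 0.08, limma adjusted p = 3.96e-07). Vegfa (chromosome 17, 46016993 to 46032369, minus strand), a growth factor for blood vessels, was at 10.6, 11.8 and 11.9 RPKM in stimulated cells and at 0.805, 1.07 and 1.14 RPKM in unstimulated cells. Its level was 11.3-fold higher. Because Vegfa met the filter on low values through the stimulated group, its test is taken from the limma fit with no filter (log2 difference 2.63, adjusted p = 1.17e-05), where it rose; on summed allelic counts the log2 difference was 4.17 with edgeR. The groups of either gene are widely separated. Gm45507, an antisense gene over Bnip3 exons, was at 0 to 0.127 RPKM in stimulated cells and 0.0588 to 0.705 RPKM in unstimulated cells.

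**Figure D2:**
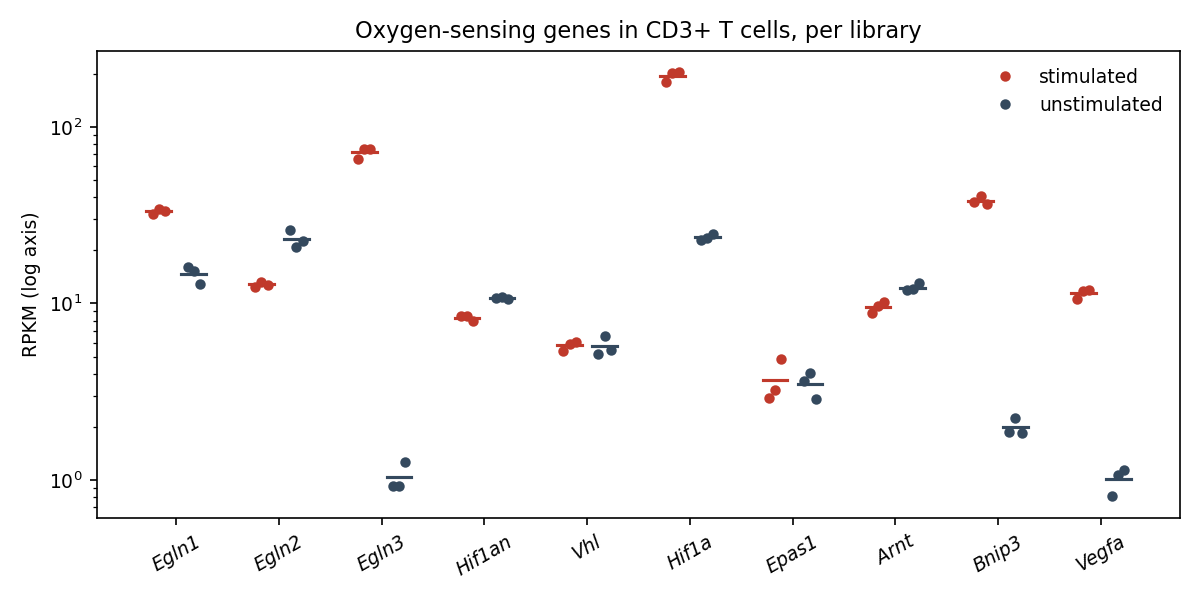
RPKM on a log axis for each of the 10 genes, with 1 point per library and a bar at the mean of each group, stimulated left of unstimulated. Egln3, Hif1a, Bnip3 and Vegfa stand far apart between groups, while the points of Epas1 and Vhl overlap.

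Of the 9 members other than Egln3, 4 rose (Egln1, Hif1a, Bnip3 and Vegfa), 3 fell (Egln2, Hif1an and Arnt) and 2 did not pass. Among the 8 of these other than Vegfa, 3 rose. Of all 13288 genes tested with limma, 31.2% rose and 48.9% fell (80.1% in either direction), and with median centring 5432 genes rose and 5206 fell. The RPKM ranges of the groups did not overlap for 8 of the 10 members and for 83.5% of the genes tested. All 10 members met the filter of at least 1 RPKM in at least 3 libraries, but Egln3 reached 1 RPKM in only 1 unstimulated library and Vegfa in only 2, so both passed it through the stimulated group. The ranges of neighbouring members in the order of levels did not overlap in stimulated cells, where the order from high to low was Hif1a, Egln3, Bnip3, Egln1, Egln2, Vegfa, Arnt, Hif1an, Vhl and Epas1. In unstimulated cells the order was Hif1a, Egln2, Egln1, Arnt, Hif1an, Vhl, Epas1, Bnip3, Egln3 and Vegfa. There the ranges of Hif1a and Egln2, of Egln1 and Arnt, and of Egln3 and Vegfa overlapped.

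The libraries differ in their other cells as well. Summed over 15 T cell markers the level was 1280 to 1350 RPKM in stimulated cells and 1140 to 1390 RPKM in unstimulated cells, but 3 of the 15 rose and 6 fell. Cd3e, a defining marker, was at 40.1 ± 2.63 RPKM in stimulated cells and 75.2 ± 8.33 RPKM in unstimulated cells (SD, n = 3 each). Summed over 15 myeloid markers it was 6.31 to 10.5 RPKM in stimulated cells and 1270 to 3640 RPKM in unstimulated cells. All 15 fell, and Adgre1, Elane and Retnlg were at 0 in all stimulated libraries. B cell markers summed to 79.4 to 148 RPKM in stimulated cells and 873 to 1330 RPKM in unstimulated cells, with falls of 13 of 14. NK cell markers summed to 12.7 to 18.5 RPKM in stimulated cells and 286 to 391 RPKM in unstimulated cells, with falls of all 8, and erythroid and platelet markers to 3.06 to 16.5 RPKM in stimulated cells and 87.8 to 1380 RPKM in unstimulated cells, with falls of 8 of 10 tested. The part of these cells in the falls of Egln2, Hif1an and Arnt was not tested, and in bulk RNA fewer cells of a type and less RNA per cell cannot be told apart. The 14 cell cycle genes summed to 855 to 856 RPKM in stimulated cells and to 116, 122 and 273 RPKM in unstimulated replicates 1, 2 and 3. Among the members, unstimulated replicate 3 was the highest of its group for Egln3, Hif1a, Vegfa and Arnt. It was the lowest for Egln1, Bnip3, Epas1 and Hif1an, and in between for Egln2 and Vhl. Unstimulated replicate 3 also had the highest marker sums of its group for other cells. These were 3640 RPKM for myeloid, 1330 for B cell, 391 for NK cell and 1380 for erythroid and platelet markers. Its T cell marker sum, 1140 RPKM, was the lowest of its group. A link of the member values to the cell cycle genes or to these markers was not tested. Epas1 is strongly expressed in endothelium. Summed over 12 endothelial and stromal markers the level was 0.257 to 0.416 RPKM in stimulated cells and 2.60 to 4.31 RPKM in unstimulated cells. Of the 12, 11 stayed under 1 RPKM in every library. Epas1 itself was at 2.88 to 4.02 RPKM in unstimulated cells, and the part of such cells in its level was not tested.

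The 5 genes whose values over the 6 libraries lay closest to those of Egln3 were Ccr8, Cdkn1a, Zbtb32, Tnfrsf8 and Lif, at Euclidean distances of 0.59 to 1.41 in log2(RPKM + 1). Ccr8, a chemokine receptor gene, averaged 79.7 ± 4.66 RPKM in stimulated cells and 1.17 ± 0.371 RPKM in unstimulated cells (SD, n = 3 each). Cdkn1a, which encodes the cell cycle inhibitor p21, averaged 68.6 ± 6.04 RPKM in stimulated cells and 2.18 ± 0.271 RPKM in unstimulated cells.

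The wider pathway was taken from 7 lists with 113 genes outside the members, of which 93 were tested. Of these 56 rose, 26 fell and 11 did not pass. Over all genes tested 31.2% rose and 48.9% fell, the shares to set beside the counts of each list. The genes named below as risen or fallen had limma adjusted p-values from 1.65e-07 (Pgk1) to 0.00927 (Vegfb). Of the 93, 15 met the filter through 1 group alone (10 of the risen and 4 of the fallen). Such a filter favours genes that differ, so these counts and medians are descriptions. None of the 82 called genes turned sign with median centring or quantile normalisation. Of 37 tested HIF targets outside the glycolysis list 24 rose, 8 fell and 5 did not pass. Their median log2 difference was 0.98, against -0.24 for all genes tested. The 37 still hold genes of glucose uptake, lactate export and glycolytic control, so they are not separate from glycolysis. Named for that function, these are Slc2a3 (log2 difference 1.07), Slc16a3 (2.13), Pdk1 (0.49), Pfkfb3 (0.04) and Pfkfb4 (-1.36). Of these 37, 9 of the risen and 1 of the fallen met the filter through 1 group. With no filter 25 of 43 rose and 7 fell (median 0.57, against -0.07 for all genes). Without any 1 stimulated replicate 16 of 29 rose (medians 0.47 to 0.52), and on summed allelic counts with edgeR 29 of 39 rose (median 1.59). Mif, a cytokine gene, averaged 818 ± 45.2 RPKM in stimulated cells and 64.8 ± 2.26 RPKM in unstimulated cells (log2 difference 3.64). Ak4, a mitochondrial adenylate kinase gene, averaged 9.68 ± 0.775 RPKM in stimulated cells and 0.159 ± 0.0498 RPKM in unstimulated cells. It was under 1 RPKM in every unstimulated library, and with no filter its log2 difference was 3.20 (limma adjusted p = 7.14e-06). Tfrc, the transferrin receptor gene, averaged 164 ± 14.1 RPKM in stimulated cells and 20.2 ± 13.2 RPKM in unstimulated cells (3.12), where unstimulated replicate 3 was at 35.4 RPKM against 11.9 and 13.4 RPKM in replicates 1 and 2. Cxcr4, a chemokine receptor gene that is induced by HIF in many cells, was among the 8 that fell. It was at 8.58 ± 2.19 RPKM in stimulated cells and 121 ± 27.7 RPKM in unstimulated cells (-3.67). Epo and Car9, classical targets in kidney and in tumours, were among the 7 list genes under the filter, with Epo listed at 0 in both groups.

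All 14 HIF targets in glycolysis rose, with a median log2 difference of 2.94. Tpi1, Pgk1, Hk2 and Gapdh, all enzymes of the pathway, led with 4.28, 4.11, 3.79 and 3.27. The order depended on the measure, since on summed allelic counts with edgeR Hk2 was at 4.51, Pgk1 at 4.46, Gapdh at 2.93 and Tpi1 at 2.91. Their rise with stimulation was known when the list was made, so it is not independent evidence.

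Of 17 genes for VHL ligase subunits and for factors that lower or raise HIF stability 11 rose, 4 fell and 2 did not pass (median 0.80). Beside these counts, 31.2% of all genes tested rose and 48.9% fell. On summed allelic counts 8 of 15 rose with edgeR and 8 of 16 with DESeq2, where the median was 0.39, and 4 fell with either tool. Ajuba, a LIM protein that scaffolds PHD and VHL proteins, averaged 7.36 ± 0.489 RPKM in stimulated cells and 0.145 ± 0.0537 RPKM in unstimulated cells. It was under 1 RPKM in every unstimulated library, and with no filter its log2 difference was 2.87 (limma adjusted p = 9.51e-06). Hsp90ab1, a chaperone gene whose product protects HIF-1α, rose by 1.51. Cul2, the cullin of the ligase, was higher by 1.40, a rise that did not pass on summed allelic counts (0.11, edgeR adjusted p = 0.607). Siah1a, a ubiquitin ligase gene whose product can target prolyl hydroxylases, fell by 1.48. Of these genes Rbx1, the RING subunit, turned sign on allelic counts with edgeR, and Rbx1 and Tceb2 (elongin B) did with DESeq2.

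Of 11 coactivators and inhibitors of HIF 4 rose, 6 fell and 1 did not pass (median -0.92), beside 31.2% and 48.9% of all genes tested. The median was -0.50 to -0.48 without any 1 unstimulated replicate, where 10 were tested, and -0.56 on summed allelic counts with edgeR. Pkm, the pyruvate kinase whose M2 form is a HIF coactivator, averaged 417 ± 12.5 RPKM in stimulated cells and 51.2 ± 2.18 RPKM in unstimulated cells (log2 difference 3.00), and Ruvbl2, an ATPase gene, rose by 2.13. Cited2, which competes with HIF-1α for the coactivators p300 and CBP, averaged 8.20 ± 0.753 RPKM in stimulated cells and 29.7 ± 0.911 RPKM in unstimulated cells (-1.74). Its relative Cited4 was under 1 RPKM in every stimulated library, and with no filter it fell by 2.04 (limma adjusted p = 0.00185). Of 8 related bHLH genes, mostly of the bHLH-PAS family, only 3 could be tested (median -0.75). Ahr rose by 0.75, and the clock genes Arntl and Clock fell by 1.33 and 0.75. Hif3a and Arnt2 were under the filter, at means of 0.410 and 0.0270 RPKM in stimulated cells and 0.338 and 0.226 RPKM in unstimulated cells.

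Bnip3 rose, while of 10 tested mitophagy receptors and partners 1 rose, 6 fell and 3 did not pass. Among all genes tested 31.2% rose and 48.9% fell. The list median was -0.49, against -0.24 for all genes tested, so the falls are not far from that background. Pink1, the kinase gene that starts parkin-dependent mitophagy, averaged 2.12 ± 0.253 RPKM in stimulated cells and 14.1 ± 0.131 RPKM in unstimulated cells (log2 difference -2.28). Map1lc3b, an LC3 gene, fell by 2.27, and Phb2, a prohibitin gene, rose by 1.32. Calcoco1, an autophagy receptor gene, met the filter through the unstimulated group. With no filter it fell by 2.65 (limma adjusted p = 1.6e-05). Of the 10 genes 2 met the filter in this way, 1 of them among the fallen. With median centring 2 of the 10 rose and 4 fell. Of 9 VEGF ligands and receptors only 2 were tested (median -0.46, and 0.05 with quantile normalisation). Vegfb rose by 0.69, while Nrp1, a coreceptor, was at 0.164 ± 0.0238 RPKM in stimulated cells and 2.57 ± 0.254 RPKM in unstimulated cells. It met the filter through the unstimulated group alone, and with no filter its log2 difference was -1.61 (limma adjusted p = 4.76e-05). Kdr and Flt1, the main receptors for the product of Vegfa, stayed under the filter, with means of 0.0455 and 0.0202 RPKM in stimulated cells and 0.384 and 0.314 RPKM in unstimulated cells.

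**Figure D3:**
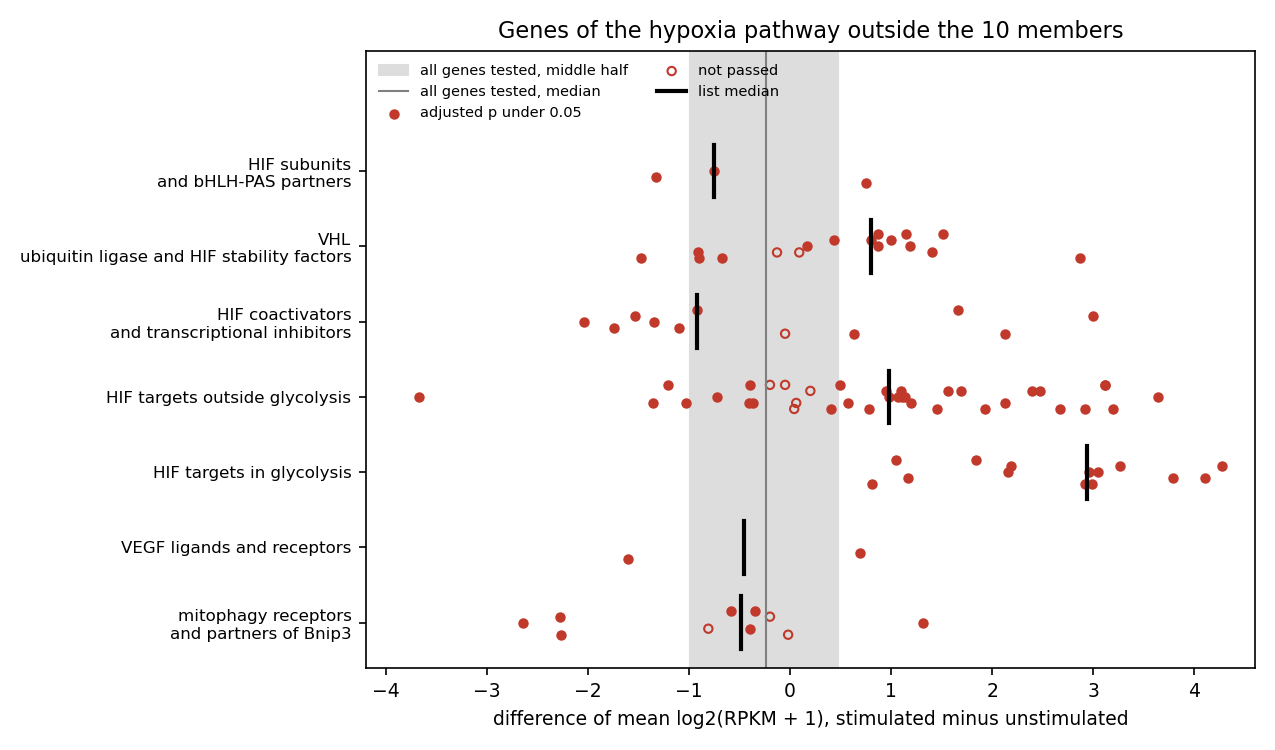
Log2 difference (horizontal axis, stimulated minus unstimulated mean log2(RPKM + 1)) of each tested gene in 7 pathway lists, filled where limma's adjusted p was under 0.05, with a black bar at the list median. The grey line marks the median of all genes tested (-0.24) and the grey band runs from their 25th to their 75th percentile (-0.99 to 0.47); all points of the glycolytic list lie to the right of the band.

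The allelic reads asked whether the maternal mus and the paternal cast copy of each member answered alike. Strain and parent of origin go together in this cross and cannot be told apart. Allelic depth was 14905853 to 20249376 reads in stimulated libraries and 9606755 to 11893039 in unstimulated ones, and the cast share over autosomes was 49.3% to 49.4% in all 6. Total allelic reads ranged from 386 for Hif1a to 20760 for Egln3. Hif1a had few although its RPKM was the highest, so its shares are imprecise. Of the 10 members 1, Epas1, changed its cast share (edgeR adjusted p under 0.05 over 12470 autosomal genes), against 10.9% of the autosomal genes tested, or 4.96% with a lower cast share as in Epas1.

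Epas1 was read mostly from mus in stimulated cells, with cast shares of 19.9%, 29.8% and 26.4% in stimulated replicates 1, 2 and 3, against 58.5%, 52.7% and 51.5% in unstimulated replicates 1, 2 and 3. The highest upper 95% Clopper-Pearson limit of a stimulated library, 33.7%, is below the lowest lower limit of an unstimulated one, 45.7% (counting error only). The mean share was 25.4% ± 5.07 in stimulated cells and 54.2% ± 3.74 in unstimulated cells (SD, n = 3 each), and the log2 ratio of cast to mus was lower by 1.80 in stimulated cells (log2 ratio change -1.80, edgeR adjusted p = 3.1e-05). The change was larger in size than that of 96.0% of the autosomal genes tested. It held when any 1 library was left out, with values of -1.96 to -1.61.

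The alleles of Epas1 took different courses while their joint level did not pass a test. The mus reads were at 23.3, 22.6 and 34.6 RPM (reads scaled to the library's allelic depth) in stimulated cells and 14.6, 16.6 and 12.5 RPM in unstimulated cells. The cast reads were at 5.77, 9.59 and 12.4 RPM in stimulated cells and 20.6, 18.4 and 13.3 RPM in unstimulated cells. The mus copy lay higher and the cast copy lower in every stimulated library than in any unstimulated one. The mus reads rose (log2 difference 1.13, edgeR adjusted p = 0.000498), as did 29.1% of genes for mus reads, while 31.6% fell. The cast reads had a log2 difference of -0.65 that did not pass (edgeR adjusted p = 0.0508), and passed as lower without TMM scaling (-0.90, edgeR adjusted p = 0.0126), without stimulated replicate 3 (-0.92) and without unstimulated replicate 3 (-0.82). For cast reads 29.4% of genes rose and 31.7% fell. These tests of single alleles were chosen after the shares of Epas1 had been seen. Markers of myeloid, B and NK cells were higher in unstimulated cells, as given above, and their part in the share was not tested.

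The shift was tested in the neighbourhood too, by a window chosen after the shares of Epas1 were seen. Of 8 other genes within 500 kb with enough reads, 0 passed with edgeR (adjusted p = 0.0544 to 0.916) and 0 with DESeq2, and 2 had an unadjusted p under 0.05. The nearest, Prkce, a protein kinase C gene 95.8 kb away, had cast shares of 55.8% ± 2.13 in stimulated cells and 61.3% ± 3.00 in unstimulated cells (SD, n = 3 each). Rhoq, a small GTPase gene, had 57.9% ± 1.67 in stimulated cells and 51.3% ± 2.07 in unstimulated cells, the opposite direction to Epas1.

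**Figure D4:**
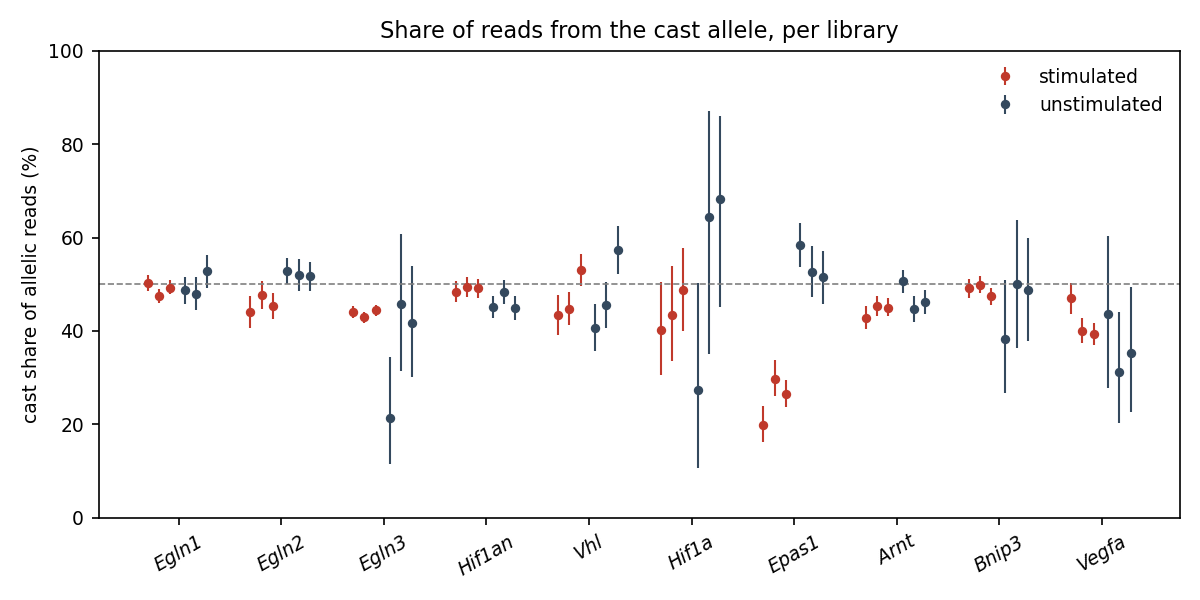
Share of allelic reads from the cast copy (vertical axis, %) for each of the 10 genes, 1 point per library with its 95% exact Clopper-Pearson interval, stimulated left of unstimulated, and a dashed line at 50%. The 3 stimulated points of Epas1 lie at 19.9% to 29.8%, clear of its unstimulated points at 51.5% to 58.5%; the wide intervals of Hif1a come from 14 to 22 allelic reads per unstimulated library.

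Egln3 was read somewhat more from mus in both groups. Its cast share was 44.0%, 43.0% and 44.4% in stimulated replicates 1 to 3 and 21.4%, 45.8% and 41.7% in unstimulated replicates 1 to 3, where only 48 to 72 allelic reads per library were counted. The log2 ratio of cast to mus was -0.36 in stimulated cells (edgeR adjusted p = 0.0021) and -0.81 in unstimulated cells (edgeR adjusted p = 0.0106), and the unstimulated value did not pass without replicate 1 (-0.38, edgeR adjusted p = 0.305). The change between groups did not pass (0.45, edgeR adjusted p = 0.275). Both copies were thus far higher after stimulation, with 168 ± 11.9 RPM in stimulated cells and 1.95 ± 0.826 RPM in unstimulated cells from cast and with 216 ± 17.2 RPM in stimulated cells and 3.33 ± 0.541 RPM in unstimulated cells from mus (SD, n = 3 each).

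**Figure D5:**
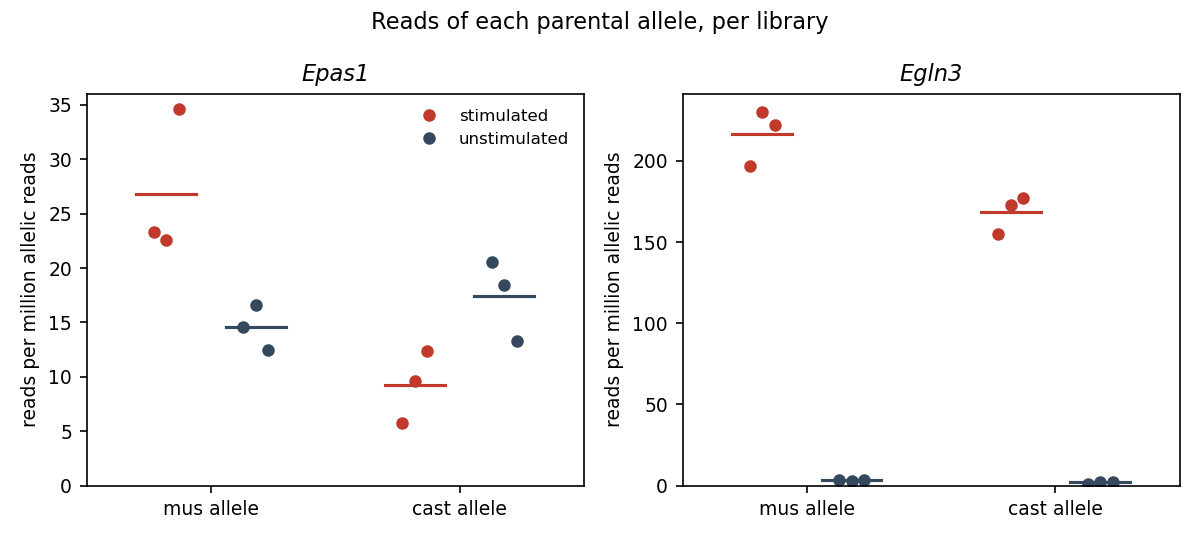
RPM (vertical axes, from 0) of the mus and the cast allele of Epas1 and of Egln3, 1 point per library and a bar at each group mean, stimulated left of unstimulated. For Epas1 the stimulated points lie above the unstimulated ones on the mus allele and below them on the cast allele; for Egln3 they lie above on both.

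Unequal reading of the copies was not rare among the members. In stimulated cells 5 of 10 (Egln2, Egln3, Epas1, Arnt and Vegfa) had fewer cast than mus reads and none more, where 20.5% of autosomal genes had fewer and 35.9% were unequal in either direction. In unstimulated cells 3 of 10 (Egln3, Hif1an and Vegfa) had fewer cast reads, against 18.5% of autosomal genes (30.8% unequal in either direction). Vegfa had a cast share of 42.1% ± 4.23 in stimulated cells and 36.7% ± 6.30 in unstimulated cells (SD, n = 3 each), and its calls were lost without replicate 2 or without replicate 3 of the group concerned. Arnt stood at 44.4% ± 1.37 in stimulated cells and 47.1% ± 3.11 in unstimulated cells. Egln2 had 45.7% ± 1.85 in stimulated cells, a call lost without stimulated replicate 1 or 3, with allele-specific library sizes and with DESeq2, and 52.2% ± 0.557 in unstimulated cells, and its change did not pass (log2 ratio change -0.38, edgeR adjusted p = 0.057). Hif1an had 49.0% ± 0.493 in stimulated cells and 46.1% ± 1.93 in unstimulated cells, where the call was lost without replicate 1 or 3 and with DESeq2. Egln1, at 49.0% ± 1.43 in stimulated cells and 49.8% ± 2.60 in unstimulated cells, and Bnip3, at 48.8% ± 1.27 in stimulated cells and 45.7% ± 6.48 in unstimulated cells, passed in neither group. Nor did Hif1a, at 44.1% ± 4.36 in stimulated cells and 53.2% ± 22.6 in unstimulated cells, or Vhl. The Vhl shares were 43.4%, 44.8% and 53.1% in stimulated replicates 1, 2 and 3 and 40.7%, 45.5% and 57.4% in unstimulated replicates 1, 2 and 3, so replicate 3 was the highest in both groups.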

How the data were processed

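RNA of 6 libraries was measured, 3 stimulated and 3 unstimulated, labelled as biological replicates. The labels do not say whether each is a separate animal, so p-values measure only the spread between these libraries. The submitters' processing notes name STAR 2.7.1a, featureCounts and mm10. How alleles were assigned, which annotation was used and which strand setting were not given in sources used here. The authors deposited RPKM for both alleles together and whole-number counts per gene of mus and of cast reads, per the file headers. The members and lists were chosen with earlier results of these data known.

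Expression was tested with limma 3.58.1 (two-sided, with trend) run in R 4.3.3. Values were log2(RPKM + 1), and the 13288 genes that reached 1 RPKM in at least 3 libraries entered, with Benjamini-Hochberg adjustment over all of them and 0.05 as threshold. Cast shares were tested on the deposited counts with edgeR 4.0.16 (quasi-likelihood, two-sided, 1 term per library) for the 12470 autosomal genes that reached 30 allelic reads in each group, and single alleles with edgeR for genes with at least 10 reads. DESeq2 1.42.0 was an alternative. The fits were also run on simulated data in which few genes changed, with rises and falls in equal number. Most genes differ in the real data, so that run cannot speak to the dependence on scaling.

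Positions are from GENCODE M21 (mm10). From each pathway list the 4 tested genes with the largest changes past the threshold were named. Same-numbered libraries shared deviations of the cast to mus ratio (correlations of 0.282, 0.298 and 0.182 across 9043 genes, which are not independent replicates). The numbers may therefore pair the allelic data, but the allelic tests given above have no replicate block. As an alternative a block on the allele ratio gave 922 genes with more cast and 764 with less, against 742 and 619 without it. It changed no member's call of a changed share.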

Additional observations from a re-analysis of the deposited data

Results flagged for a closer look

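The effect of allele on Epas1 reads differed between the groups. The log2 ratio of cast to mus changed by -1.80 (stimulated minus unstimulated), which passed the edgeR test of that difference (adjusted p = 3.1e-05), with a lower cast share in each of the 3 stimulated libraries than in any unstimulated one.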

How the results depend on the processing

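Without 1 replicate at a time, the log2 difference ranged from -0.14 to 0.15 for Epas1 and from -0.04 to 0.11 for Vhl. The log2 change of the cast to mus ratio ranged from -0.09 to 0.04 for Egln1, -1.32 to 0.07 for Hif1a, -0.24 to 0.24 for Vhl and -0.03 to 0.30 for Bnip3, and the log2 ratio in unstimulated cells from -0.10 to 0.04 for Egln1, -0.41 to 0.98 for Hif1a and -0.40 to 0.08 for Vhl. None of these passed in the full data. Of the 9 members tested for expression, 1 fell (Egln2), in place of 3, with median centring, with edgeR on summed allelic counts and with DESeq2 on them. There Arnt was at 0.11 (edgeR) and 0.09 (DESeq2) and Hif1an at 0.03 (edgeR) and 0.02 (DESeq2). Egln1 in unstimulated cells had a log2 ratio of 0.02 with allele-specific library sizes. The cause was not tested.

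For expression, same-numbered libraries correlated at 0.00603, 0.0611 and 0.0908 across genes and 4 of 6 libraries correlated best with their own number, so the numbers were not taken as pairs. With a replicate block 4048 genes rose and 6416 fell, against 4148 and 6494 without it, and 4 members rose and 3 fell as before. For allele ratios the block gave 764 genes with less cast, against 619 without it, and Epas1 stayed at -1.80. Depth limits Hif1a, with 386 allelic reads, and the unstimulated shares of Egln3, Bnip3 and Vegfa, with 176, 210 and 157.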

Other observations

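Some genes of the lists outside the named ones, picked here after their values were seen, add to the picture. Bnip3l, the close relative of Bnip3 and also a HIF target, averaged 28.3 RPKM in stimulated cells and 38.0 RPKM in unstimulated cells (log2 difference -0.40, limma adjusted p = 0.0333). That call depends on scaling: with median centring it was -0.13 and on summed allelic counts -0.02 with edgeR, and neither passed (adjusted p = 0.265 with limma and 0.885 with edgeR, and 0.00628 to 0.885 over all alternatives). Bnip3l was at 31.1, 37 and 46 RPKM in unstimulated replicates 1, 2 and 3. There the erythroid and platelet markers summed to 87.8, 835 and 1380 RPKM, and a link between them was not tested. The coactivator genes Crebbp and Ep300 fell by 1.54 and 0.92 on the log2 scale (limma adjusted p = 3.1e-06 and 3.17e-05). Ero1l, an oxidase gene of protein folding, averaged 70.2 RPKM in stimulated cells and 7.18 RPKM in unstimulated cells.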
